A study of Mus musculus with 3 samples.

Results

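The genes described here are 40 mouse genes of fatty acid metabolism, set beside the RNA bound by RBFOX2 in hepatocytes. The set was drawn up by the known roles of the genes, at a time when earlier results of these data were known. It holds 19 genes of fatty acid synthesis and triglyceride storage, 13 of fatty acid oxidation, and 8 that activate, carry or release fatty acids. A gene's clusters were those on its strand whose midpoint lay inside its annotated span in GENCODE M21 on the mouse genome GRCm38. By this rule 633 of the 87021 clusters in the list (0.727%) belonged to the 40 genes, and they held 25923 of 2850863 counts (0.909%). No cluster belonged to more than 1 of the 40 genes.

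RBFOX2 was immunoprecipitated from UV-irradiated primary hepatocytes of C57BL6/J mice, which according to the series' design text were on a control diet, and whose cells were plated overnight before irradiation. The labels name no genotype or age, and plated cells stand for the liver only as hepatocytes out of the tissue. The method, eiCLIP, ligates and reverse transcribes the RNA crosslinked to the protein, and each cDNA ends at the nucleotide next to the crosslink. There were 3 libraries in 1 group, and the labels describe each sample as made from 3 livers, whereas the study's methods name a different number of mice per culture. The authors pooled the libraries before they called clusters, so each value below is a single pooled count, taken to be the number of cDNA starts in a cluster, with no spread between libraries. No input, no library without the antibody and no cells lacking RBFOX2 were analysed here. No difference below has a replicate check or a p-value, and the 95% Wilson intervals cover counting error only.

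RBFOX2 is an RNA-binding protein of the RBFOX family that controls alternative splicing and recognises GCAUG, written GCATG in DNA letters. Binding in introns close to an exon is the position best known for its effect on splicing, and binding in 3′ UTRs has been linked to RNA stability. In the liver, carbohydrate is turned into fatty acids in the cytosol by citrate cleavage, carboxylation and repeated condensation, and the products are elongated, desaturated and esterified into triglycerides. Fatty acids are burnt in mitochondria after they are bound to coenzyme A, passed through the carnitine shuttle and shortened by repeated rounds of dehydrogenation, hydration and thiolysis.

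Markers of hepatocytes carried clusters in 6 of 6 genes, with 101 clusters and 10501 counts, of which Alb, the serum albumin gene, had 8110 counts. Cyp2e1 and Serpina1c had only 1 cluster each, of 11 and 20 counts, and the other 3, Cps1, Apoa1 and Ttr, had 1540, 639 and 181 counts. Most markers of other liver cells had no cluster or, like Cyp2e1 and Serpina1c, were close to the floor of the list, where the lowest count is 10. Of 4 Kupffer cell markers 1 had a cluster, with 15 counts, of 4 endothelial markers 1 had a cluster, with 12 counts, and of 3 cholangiocyte markers none had one. Among 4 stellate cell markers only Reln, the reelin gene, carried clusters, with 150 counts in 4 clusters, and their part in the results was not tested.

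The sequences below were chosen for holding the RBFOX pentamer in or beside a cluster, so they do not show how often it occurs there. For each described gene the GCATG is the one nearest to the start of its highest cluster that has both sequence and the pentamer within 50 nt. In Gpam, Elovl5, Acsl4 and Acot12 the pentamer lies outside that cluster. The clusters used in Gpam, Cpt1a, Acsl5 and Acot12 rank 20, 12, 11 and 55 by count in their genes, with 35, 18, 20 and 37 counts. Each is read 5′ to 3′ on the strand of the gene, from GENCODE M21 transcripts on GRCm38, and the capitals mark GCATG.
Scd1, 3′ UTR, chr19:44397241-44397265, minus strand: agaaaagttaGCATGcgtggtatga
Mlxipl, 3′ UTR, chr5:135137817-135137841, plus strand: gctagccagaGCATGgcaggcatct
Gpam, 3′ UTR, chr19:55069630-55069654, minus strand: gttacacagaGCATGgcgtggctgg
Elovl6, 3′ UTR, chr3:129637854-129637878, plus strand: gattctcagaGCATGgatacccacg
Elovl5, 3′ UTR, chr9:77983161-77983185, plus strand: tgtagaccatGCATGtgattgtaaa
Cpt1a, 3′ UTR, chr19:3384475-3384499, plus strand: agaaggcttaGCATGtgaagccttt
Acsl5, 3′ UTR, chr19:55296560-55296584, plus strand: ctgtcagataGCATGtggtgcctct
Acsl4, 3′ UTR, chrX:142318810-142318834, minus strand: aaatgtgagtGCATGcatactatct
Acot12, coding exon, chr13:91762997-91763021, plus strand: tccgactgcaGCATGagaacacctt

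Introns are rarely covered by an annotated transcript, and a GCATG could be read beside only 5 intronic clusters of the 40 genes. All 5 lay on the downstream side of an exon, at 10 to 163 nt, and they are shown for that position. Of the 21 intronic clusters with sequence, 10 lay within 500 nt downstream of an exon, 3 within 500 nt upstream, and 2 touched an exon edge.
Lpin2, 50 nt after exon 3, chr17:71222184-71222208, plus strand: ggcttctataGCATGtcacaaaaca
Lpin2, 163 nt after exon 3, chr17:71222316-71222340, plus strand: agtccagagaGCATGcagaaagctg
Lpin2, 77 nt after exon 9, chr17:71237643-71237667, plus strand: taaatgactgGCATGagaaaaaaaa
Lpin2, 76 nt after exon 15, chr17:71243497-71243521, plus strand: tccttaaaccGCATGccctaaggtg
Cpt1a, 10 nt after exon 2, chr19:3349367-3349391, plus strand: gcacttgcttGCATGcacctccctg
The distances are those of the clusters and not of the motifs. The clusters held 22, 33, 53 and 10 counts in Lpin2 and 16 counts in Cpt1a, beside a highest cluster of 376 and 145 counts in those genes.

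Nearly all members were bound. At least 1 cluster was present in 38 of 40 genes (95%, interval 83.5 to 98.6%), against 41.8% of all 21951 protein-coding genes. At least 10 clusters were present in 15 of the 40, against 9.19% of protein-coding genes. The members were also longer, at a median of 36.3 kb against 17.4 kb for all protein-coding genes, and the part of length was not tested. The whole-genome shares include genes that hepatocytes do not transcribe, and the list gives no level of the RNA itself. Fewer transcripts and less binding per transcript therefore cannot be told apart for any gene here. The members without a cluster on their strand were Ehhadh, the peroxisomal bifunctional enzyme, and Slc27a5, the bile acid and very-long-chain acyl-CoA synthetase of the liver. The list holds no cluster under 10 counts, so weaker binding to them would not be seen.

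Synthesis and storage genes carried more clusters than oxidation genes, and most of that excess lay in a handful of genes. The 19 synthesis and storage genes had 419 clusters and 14388 counts, with a median of 10 clusters per gene (range 2 to 91). The 13 oxidation genes had 47 clusters and 1065 counts, with a median of 2 clusters per gene (0 to 17). Per length of gene the pooled values were 3.66 and 1.37 clusters per 10 kb, a ratio of 2.68, and the gene medians were 2.01 and 1.02. The direction changed when the activation and transport genes were divided between the roles by their place in the gene list. Acot12 then counted as oxidation and gave 110 of its 166 clusters. The pooled values were 3.39 and 3.78, a ratio of 0.896, and other ways to divide these genes were not tried. Among clusters of at least 39 counts the ratio was 7.70, with 3 clusters left in oxidation genes. For scale, all protein-coding genes pooled gave 0.682 clusters per 10 kb, and the median over protein-coding genes with a cluster was 1.22. The 5 synthesis and storage genes with the highest sums, Scd1, Lpin2, Gpam, Mlxipl and Me1, held 324 of the 419 clusters (77.3%) at 10.7 per 10 kb. The other 14 held 95 clusters, at a pooled 1.13 per 10 kb. The 1.37 of the oxidation genes is no match for that value, since it keeps their own leading genes. The oxidation clusters were concentrated too, with 27 of 47 (57.4%) in Cpt1a and Acadl. The other 11 oxidation genes pooled to 0.807 per 10 kb, below the 1.13 of the other 14 synthesis and storage genes. These splits were chosen after the values were seen.

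**Figure D1:**
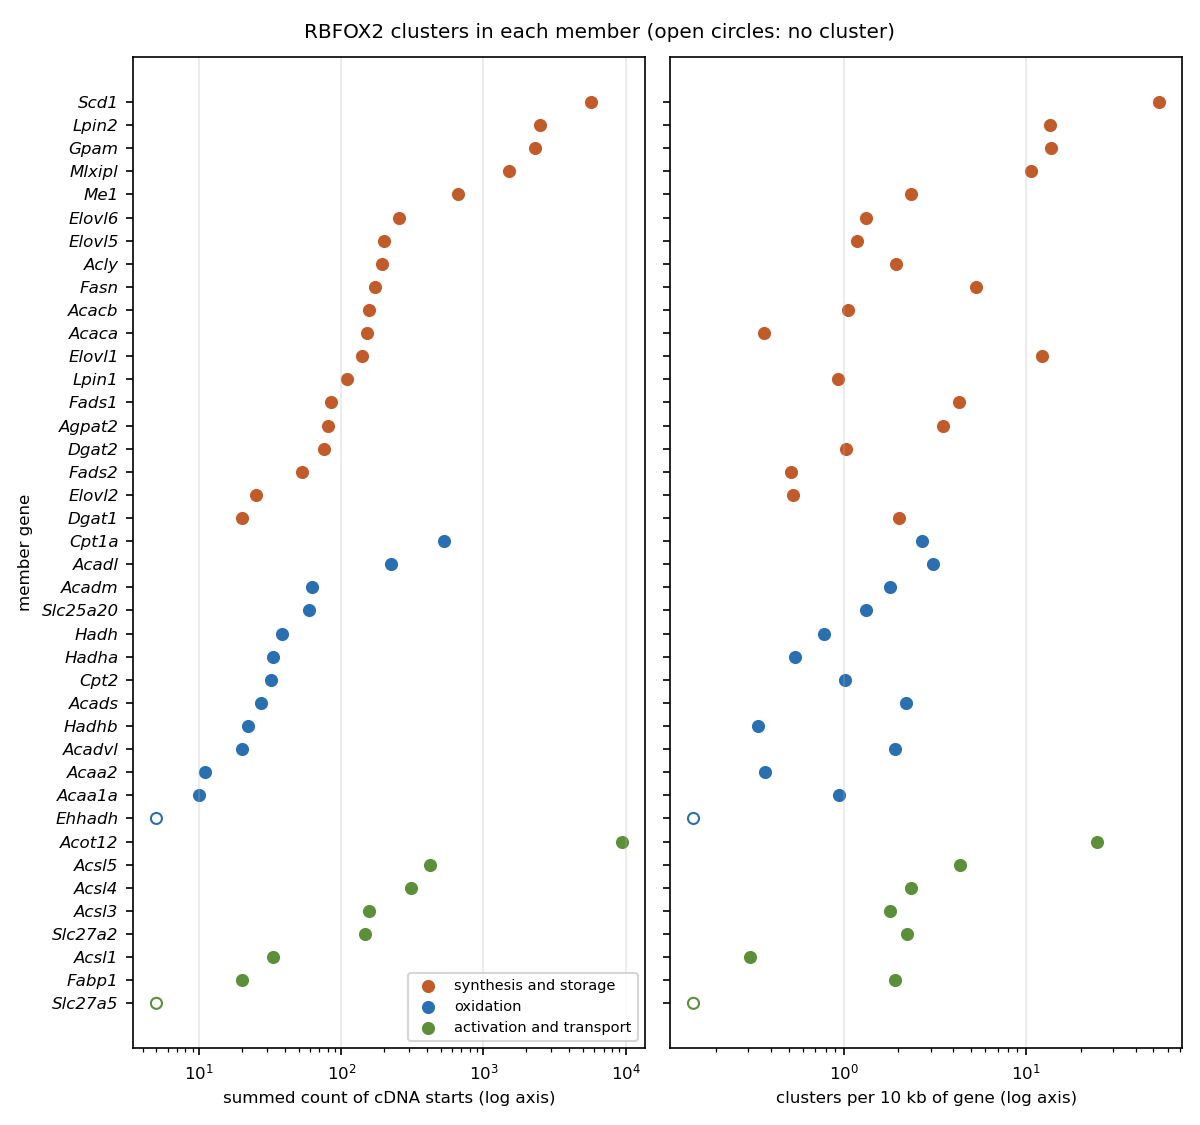
The left panel plots the summed count of each member and the right panel its clusters per 10 kb of gene, both on log axes, with 1 point per gene coloured by role and open circles for genes with no cluster. Scd1 at 5677 counts and Acot12 at 9388 counts stand at the right of their roles, and the oxidation genes other than Cpt1a and Acadl sit at 62 counts or fewer.

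The count of a single cluster differed less between roles than the number of clusters did. Synthesis and storage clusters had a median of 19 counts (quartiles 14 and 32), oxidation clusters a median of 18 (quartiles 14 and 23), and all clusters of the series a median of 17. The highest cluster was 1171 counts in synthesis and storage and 145 in oxidation. Clusters of synthesis and storage genes were narrower, at a median of 15 nt, than those of oxidation genes, at 45 nt. The narrow clusters were those of the 5 leading synthesis and storage genes, at a median of 10 nt, and the clusters of the other 14 had a median of 54 nt.

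By annotation class the pair of roles was nearly alike when each cluster had equal weight. Introns held 235 of 419 synthesis and storage clusters (56.1%, interval 51.3 to 60.8%) and 26 of 47 oxidation clusters (55.3%, 41.2 to 68.6%). Coding sequence held 17.7% (14.3 to 21.6%) and 23.4% (13.6 to 37.2%), and 3′ UTRs held 24.3% (20.5 to 28.7%) and 19.1% (10.4 to 32.5%). The intervals overlapped in each class, and 47 oxidation clusters leave room for a difference of either sign. Among all 74120 clusters in genes, 68.1% were intronic, 14.1% coding and 13.2% in 3′ UTRs. When clusters were weighted by count, the intronic share of the synthesis and storage genes was 39.5% and their 3′ UTR share 45.7%, against 59.0% and 19.5% in the oxidation genes. Scd1 decided the weighted values. Without it, introns held 65.0% and 3′ UTRs 15.2% of the synthesis and storage count, and 67.4% and 12.1% of the clusters.

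**Figure D2:**
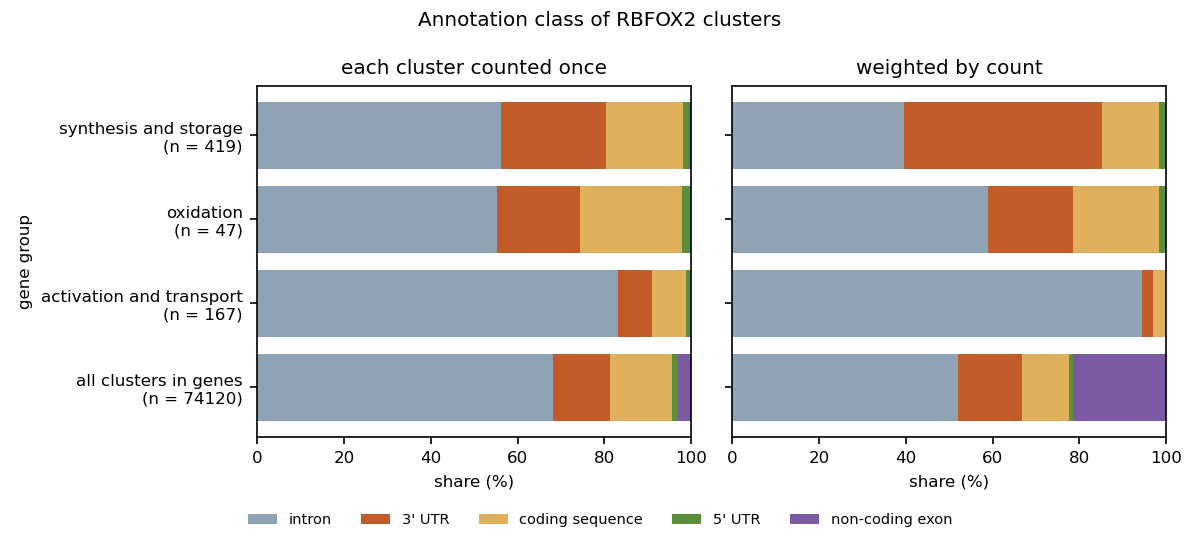
Bars give the share of clusters in each annotation class, in percent, for the 3 roles and for all clusters in genes, with each cluster counted once on the left and weighted by count on the right. The intronic share was 56.1% and 55.3% for synthesis and oxidation on the left, and 39.5% and 59.0% on the right.

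Per length of sequence, exons were more densely bound than introns in both roles. Synthesis and storage genes had 18.2 clusters per 10 kb of exon and 2.25 per 10 kb of intron, a ratio of 8.07. Scd1 raised that ratio, at 124 alone, and without it the values were 11.7 and 2.26, a ratio of 5.19. Oxidation genes had 6.57 and 0.834, a ratio of 7.87. The activation and transport genes other than Acot12 gave 9.93 and 1.24, a ratio of 8.04. Acot12 taken by itself ran the other way, at 9.45 clusters per 10 kb of exon and 25.8 per 10 kb of intron. It was not the only such member, since genes such as Agpat2, with 4 clusters, were bound in introns only. The ratio was not computed gene by gene for the rest. The levels of spliced and unspliced RNA were not measured here, and their part in these densities was not tested.

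Scd1, stearoyl-CoA desaturase, places the double bond that turns saturated into monounsaturated fatty acids. It had 72 clusters and 5677 counts, rank 30 of 10738 genes with a cluster by summed count, and 53.6 clusters per 10 kb. Of the 72 clusters, 60 lay in its 3464-nt 3′ UTR (chr19:44394455-44397918), with 5255 counts (92.6% of the gene's count). Another 10 lay in coding exons and only 1 in an intron. In the 3′ UTR the clusters ran from 10 counts through a median of 41 to 1171, they were narrow, and together they covered 9.09% of its bases. The highest cluster (chr19:44397235-44397271) contained the GCATG printed above, and the next highest had 571 counts. Across the 3′ UTR, 3 of the 59 clusters with sequence had GCATG within 50 nt, with counts from 13 to 1171, and the UTR holds 5 copies of the pentamer.

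Lpin2 encodes lipin 2, a phosphatidate phosphatase that makes the diacylglycerol used for triglyceride. It had 91 clusters and 2509 counts, rank 109, of which 72 clusters were intronic and 14 coding. Intron 3 was bound at 68.1 clusters per 10 kb, with 19 clusters and 560 counts in 2789 nt, and intron 4 at 24.6, with 10 clusters and 669 counts. The highest cluster (chr17:71228570-71228725) had 376 counts and lay 583 nt upstream of exon 5. GCATG was present beside 6 of 17 Lpin2 clusters with sequence (35.3%, interval 17.3 to 58.7%), the 4 intronic ones shown above, 1 in coding exon 17 and 1 in the 3′ UTR. In Scd1 the same share was 5 of 62 (8.06%, 3.49 to 17.5%), and in Mlxipl 1 of 22 (4.55%, 0.807 to 21.8%). All 91 Lpin2 clusters also lay in the span of the long non-coding gene Gm26561 on the same strand, and the RNA of origin cannot be told apart by position.

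Gpam, the mitochondrial glycerol-3-phosphate acyltransferase that starts glycerolipid synthesis, had 82 clusters and 2323 counts, rank 120. Introns held 60 of its clusters, with 27 in intron 1 and 19 in intron 3, and the 3′ UTR held 16. The highest cluster (chr19:55101645-55101678) had 129 counts and the next 112 counts, and both lay in intron 3, 1288 and 954 nt after exon 3. Mlxipl encodes ChREBP, the glucose-responsive transcription factor that drives lipogenic genes. It had 52 clusters and 1507 counts, rank 202, and unlike Gpam and Lpin2 it was bound mainly in coding sequence, with 29 clusters and 845 counts, against 17 clusters and 290 counts in introns. Its highest cluster (chr5:135137720-135137848), with 133 counts, was in the 3′ UTR and contained GCATG. Me1, the cytosolic malic enzyme that supplies NADPH, had 27 clusters and 657 counts, rank 570. Introns held 24 of the 27, led by a cluster of 87 counts (chr9:86616391-86616443) that lay 2753 nt upstream of exon 8, and the 3′ UTR held none.

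The remaining lipogenic enzymes were bound at lower levels. Elovl6, which elongates palmitate, had 14 clusters and 253 counts, with the highest at 49 counts in the 5′ UTR (chr3:129532509-129532662). Elovl5, an elongase of polyunsaturated fatty acids, had 8 clusters and 201 counts, of which 80 were in 1 cluster of the 3′ UTR (chr9:77982979-77983148). Acly, which cleaves citrate to acetyl-CoA, had 10 clusters and 193 counts, with none above 30 counts. Its highest cluster (chr11:100499875-100499981) was intronic. Fasn, the fatty acid synthase, had 10 clusters and 172 counts at 5.35 clusters per 10 kb, and Acaca, the cytosolic acetyl-CoA carboxylase, had 10 clusters and 151 counts over 272 kb, or 0.368 per 10 kb. Fasn and Acaca belong to the 11 synthesis and storage genes outside the 8 with the highest sums, which had 2 to 11 clusters and 20 to 172 counts each. Fads2, the delta-6 desaturase, had only 2 clusters, of 32 counts in the 3′ UTR and 21 counts in the 5′ UTR, and both had GCATG within 50 nt. Fads1, the delta-5 desaturase beside it on the chromosome, had 6 clusters and 85 counts, 3 of the 6 intronic. Acacb, the mitochondrial carboxylase whose malonyl-CoA restrains the carnitine shuttle, had 11 clusters and 157 counts, 7 of them intronic and none above 23 counts. Agpat2, which acylates lysophosphatidate, had 4 clusters and 80 counts, all intronic, and Lpin1, the paralogue of Lpin2, had 7 clusters and 110 counts, 5 of them intronic, at 0.930 clusters per 10 kb against 13.5 in Lpin2. At the low end, Dgat1, which adds the last acyl chain of triglyceride, had 2 clusters of 10 counts each.

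Among oxidation genes the most bound was Cpt1a, carnitine palmitoyltransferase 1a of the outer mitochondrial membrane, the controlled entry step. It had 17 clusters and 529 counts, rank 740, of which 9 clusters were intronic, 4 in the 3′ UTR and 3 coding. Intron 12 alone held 4 clusters and 252 counts (47.6% of the gene's count). The highest of them (chr19:3372778-3372842), at 145 counts, lay 1101 nt after exon 12, and another of 56 counts lay 116 nt after it. Acadl, the long-chain acyl-CoA dehydrogenase, had 10 clusters and 222 counts at 3.08 per 10 kb. Its highest clusters were coding, with 37 counts in exon 2 (chr1:66857402-66857465) and 36 counts in exon 3 (chr1:66854590-66854756). The cluster in exon 2 began beside a GCATG, although annotated exons did not cover its whole window and it is not in the motif counts below.
Acadl, exon 2, chr1:66857446-66857475, minus strand: ttttcctcggaGCATGacattttccgggag

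The other enzymes of the spiral and the shuttle had 4 clusters or fewer. Acadm, the medium-chain dehydrogenase, had 4 clusters and 62 counts, the highest 21. Slc25a20, the carnitine-acylcarnitine carrier, had 3 clusters and 59 counts, with the highest, at 24 counts (chr9:108682998-108683023), 26 nt upstream of exon 8. Hadh, which oxidises the short-chain hydroxyacyl group, had 3 clusters and 38 counts, and Hadha, a subunit of the trifunctional protein, had 2 coding clusters of 18 and 15 counts. Cpt2, the inner-membrane carnitine transferase, had 2 intronic clusters of 16 counts each, and Acads, the short-chain dehydrogenase, had clusters of 14 and 13 counts. Hadhb, Acadvl, Acaa2 and Acaa1a had 1 cluster each, at 10 to 22 counts. Counts at this level are near the floor of 10, so the order among these genes is not resolved.

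Among the 8 activation and transport genes, Acot12, a cytosolic acetyl-CoA thioesterase, carried 110 of 167 clusters and 9388 of 10470 counts. It ranked 13 of 10738 genes by summed count and had the highest sum of the 40 members. Intron 1 (chr13:91741661-91750187, 8527 nt) held 100 of its clusters and 9105 counts (97.0%), or 117 clusters per 10 kb. These clusters ran through the whole intron, the first 11 nt after exon 1 and the last 126 nt before exon 2, with a median gap of 54 nt and a largest gap of 240 nt. Between 5.5 and 7.5 kb from the gene start 39 clusters held 6950 counts (74.0% of the gene's count), led by 1657 counts (chr13:91748162-91748198). The intron 1 clusters had a median width of 4 nt, and 38 were at most 2 nt wide, whereas the other 10 clusters of the gene had a median width of 47 nt. No cluster lay on the same strand in the 10 kb upstream of the gene. Only 7 of the intron 1 clusters had sequence, and none of those had GCATG within 50 nt, so motif content there is largely unknown. The coding-exon GCATG printed above lay beside a cluster of 37 counts.

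Without Acot12 the other 7 activation and transport genes had 57 clusters, 56.1% intronic, and pooled to 2.01 clusters per 10 kb. The acyl-CoA synthetases, which bind fatty acids to coenzyme A, differed among themselves. Acsl5 had 20 clusters and 419 counts, 14 of them intronic, with the highest, at 42 counts, in coding exon 7 (chr19:55280555-55280577). Acsl4, which prefers arachidonate, had 17 clusters and 308 counts, 8 of them in the 3′ UTR, led by 54 counts (chrX:142318794-142318801). Acsl3 had 9 clusters and 156 counts, 7 of them intronic, and 5 of the 9 also lay in the span of Utp14b on the same strand. Acsl1 had 2 clusters and 33 counts. Slc27a2, a very-long-chain acyl-CoA synthetase, had 8 clusters and 146 counts, and Fabp1, the liver fatty acid binding protein, had 1 cluster of 20 counts.

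**Figure D3:**
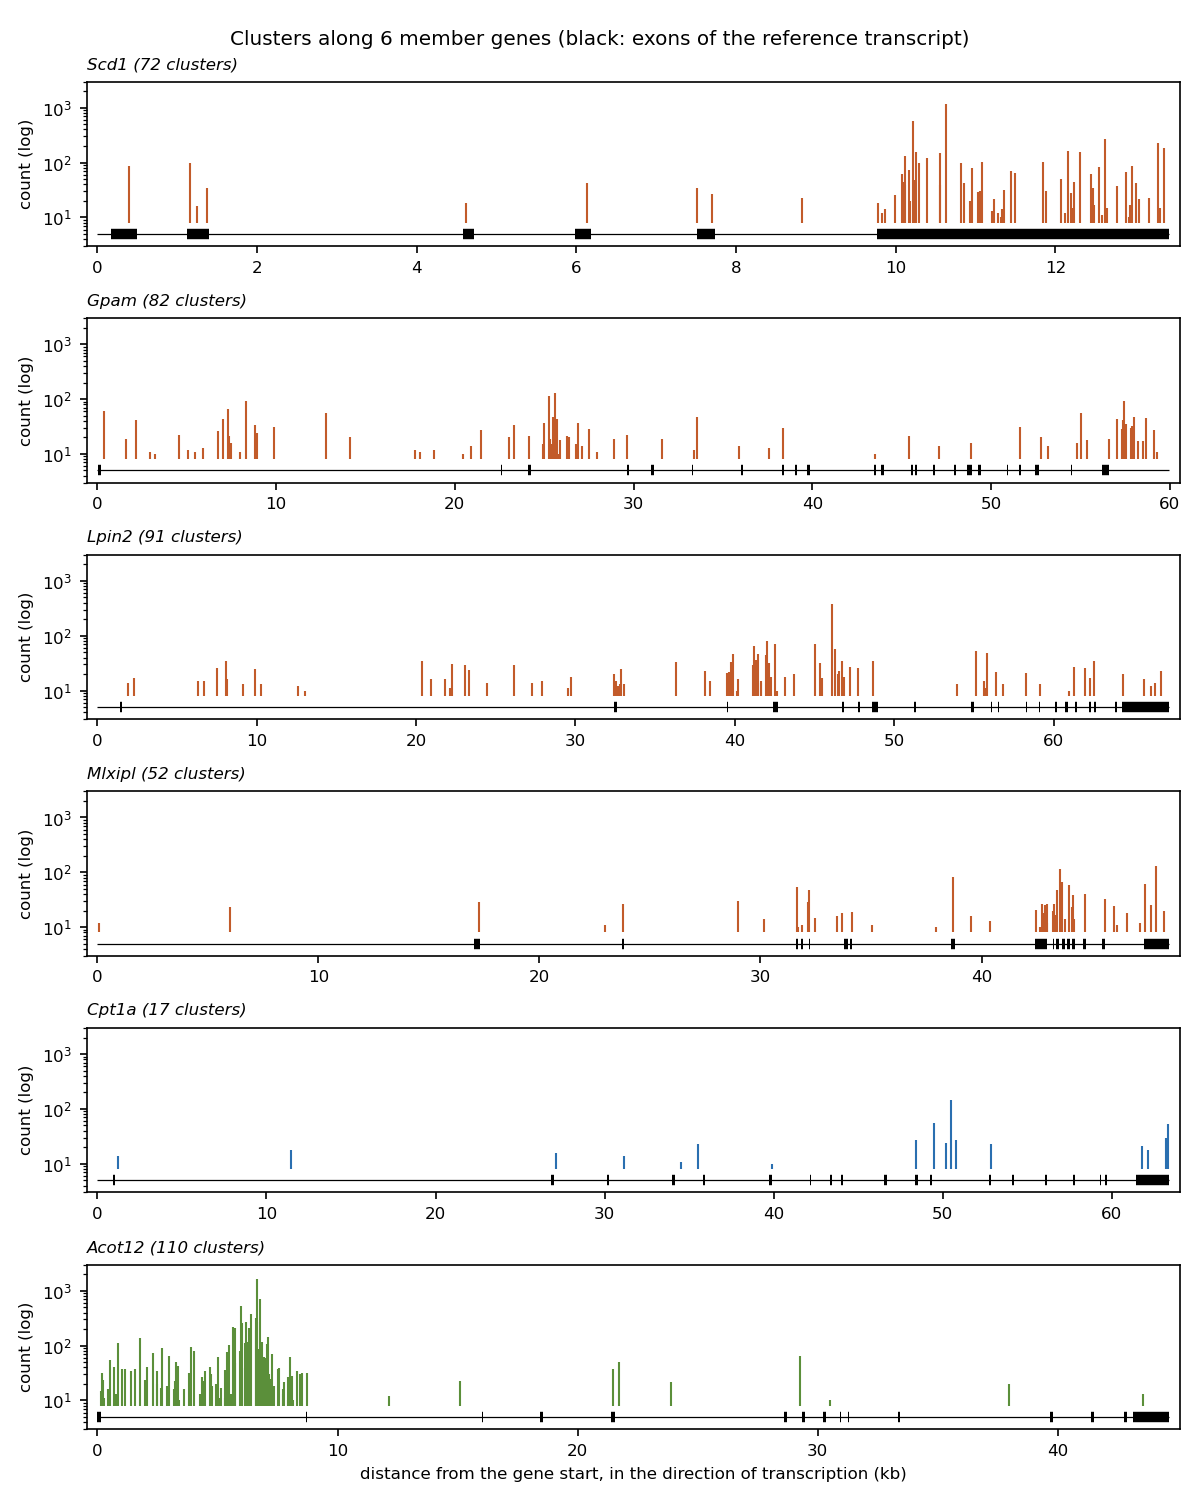
Each panel shows 1 gene, with a line for every cluster at its distance from the gene start in kb and its count as the height on a log axis, and the exons of the reference transcript in black below. Scd1 was bound along its last exon (60 clusters in the 3′ UTR), Acot12 along its first intron (100 clusters), and Gpam, Lpin2, Mlxipl and Cpt1a at several separate stretches.

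Intronic clusters of both roles lay near exons in a larger share than the intronic bases did. They lay within 500 nt of a coding-transcript exon in 83 of 235 cases in synthesis and storage genes (35.3%, interval 29.5 to 41.6%) and in 13 of 26 in oxidation genes (50%, 32.1 to 67.9%). That stretch makes up 24.5% of the intronic bases of the synthesis and storage genes and 35.2% of those of the oxidation genes. The first value lay outside the counting interval and the second inside it. The interval treats clusters as independent, although Lpin2 held 72 of the 235, so it covers no spread between genes. The cluster share was 27.5% (27.1 to 27.9%) for 49890 intronic clusters of protein-coding genes in the series. Single genes moved it, and the share of bases was not recomputed without them. Without Lpin2 the synthesis and storage share was 51 of 163 (31.3%), and outside the 5 leading genes of that role it was 29 of 61 (47.5%). Outside Cpt1a and Acadl the oxidation share was 4 of 11 (36.4%). Within 500 nt, clusters upstream and downstream of the exon were about as frequent, at 41 and 39 in synthesis and storage genes and 5 and 6 in oxidation genes, and the rest touched an exon edge. The median distance to an exon was 995 nt in synthesis and storage and 531 nt in oxidation. Intron 1 held 28.5% of the intronic clusters in synthesis and storage genes, where it has 21.6% of the intronic bases, and 19.2% in oxidation genes, where it has 34.1%. In the activation and transport genes 80.6% were in intron 1, most of them in Acot12.

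**Figure D4:**
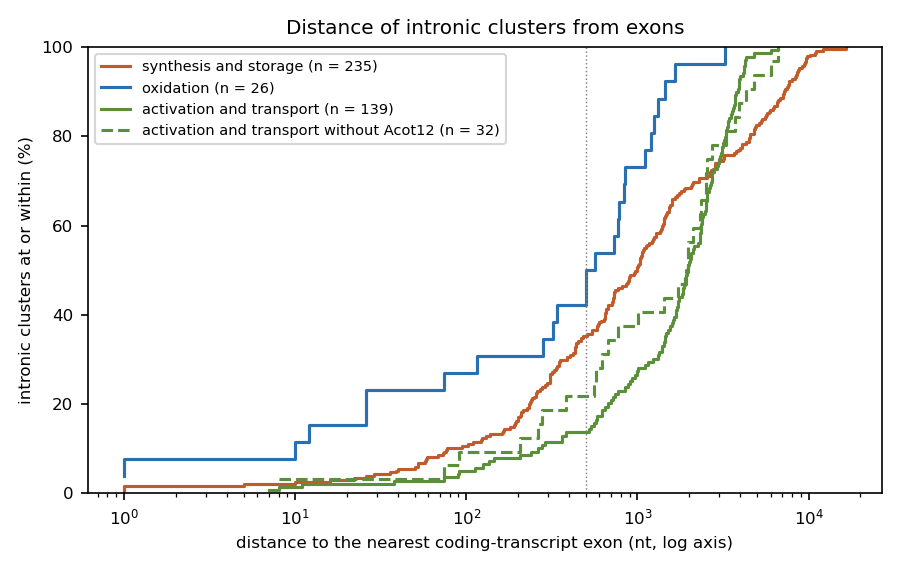
The curves give the share of intronic clusters, in percent, that lie at or within a distance from the nearest coding-transcript exon, in nt on a log axis, by role, with a dotted line at 500 nt and a dashed curve for activation and transport without Acot12. At 500 nt the curves stand at 35.3% for synthesis and storage and 50% for oxidation.

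A few of these clusters lay beside exons that other annotated transcripts skip. There were 11 such clusters among the 83 intronic clusters within 500 nt in synthesis and storage genes, in 6 genes and with 11 to 33 counts. There was 1 among 13 in oxidation genes and none among 19 in activation and transport genes. The same share over all genes is not given here, so these numbers set no role apart. In Acly, clusters of 11 and 18 counts lay 58 and 234 nt upstream of a 30-nt exon (chr11:100503160-100503189). In Elovl1, an elongase of very long saturated chains, clusters of 12 and 33 counts lay 52 and 249 nt upstream of a 130-nt exon. In Gpam, a 123-nt exon had a cluster of 29 counts at 255 nt on its upstream side and a cluster of 11 counts at 59 nt on its downstream side. The oxidation case was Cpt1a, with 14 counts 74 nt downstream of a 90-nt exon. That exon is the first of the Cpt1a reference transcript, and the 103-nt exon beside a Lpin2 cluster of 14 counts is likewise a first exon. A transcript that starts further upstream and lacks such an exon counts here as skipping it. Acly, Elovl1 and Gpam were picked from the 6 genes after their positions were seen, and the inclusion of the exons was not measured here.

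Pooled over the 40 genes, GCATG was less frequent beside these clusters than in the series, and Scd1 weighed heavily in that share. Over windows of the cluster with 50 nt on each side, it was present in 19 of 141 synthesis and storage windows with sequence (13.5%, interval 8.80 to 20.1%) and in 2 of 10 oxidation windows (20%, 5.67 to 51.0%), both in Cpt1a. Activation and transport genes had it in 3 of 27 (11.1%, 3.85 to 28.1%). In the whole series it was present in 3943 of 19587 windows (20.1%, 19.6 to 20.7%). The 40 genes together had it in 24 of 178 (13.5%, 9.23 to 19.3%). Scd1 gave 62 of these windows, 5 with GCATG. Without Scd1, a setting chosen after seeing the data, the synthesis and storage share was 14 of 79 (17.7%). When the available sequence of the same genes was divided into 118-nt windows, 12.9% of those of synthesis and storage genes and 8.19% of those of oxidation genes held GCATG. The 13.5% and 12.9% of the synthesis and storage genes differed by less than the counting interval. These windows are not matched, however. Cluster windows vary in length with the cluster, and 62 of the 141 lay in Scd1, whereas the 118-nt windows came from all genes of the role. Exonic windows of the 40 genes had it in 12.1% of cases (interval 7.89 to 18.1%), against 19.1% in the series. Intronic windows had it in 5 of 21 (interval 10.6 to 45.1%), against 25.7%. Sequence was available for 33.7% of synthesis and storage clusters, 21.3% of oxidation clusters and only 5.25% of all intronic clusters of the 40 genes, so the motif content of intronic binding was mostly not readable. Clusters with GCATG had a median of 22 counts and those without it 23 counts. The longer TGCATG was present in 9 of the 24 windows with GCATG.

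Other genes of the pathways, not among the 40, did not repeat the gap between roles in the number of clusters per gene. A list of 20 other synthesis and storage genes had 147 clusters in 16 genes, with a median of 3 clusters (0 to 27) and 2.67 clusters per 10 kb pooled. Fads6, a member of the desaturase family, was the highest of them, with 27 clusters and 797 counts. A list of 20 other oxidation genes had 145 clusters in 16 genes, with a median of 4.5 clusters and 2.15 per 10 kb. Genes with at least 10 clusters numbered 5 and 6, against the same 9.19% of protein-coding genes. The genes at 0 were Thrsp, Scd2, Elovl3 and Mogat1 in the first list and Decr2, Eci2, Crat and Acaa1b in the second.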

How the data were processed

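RNA bound to RBFOX2 in primary mouse hepatocytes was sequenced in 3 eiCLIP libraries. Per the study's methods and the submitters' processing notes, the authors removed adaptors with cutadapt, aligned reads to GRCm38 with STAR 2.4.2a (base calling with CASAVA 1.8.4), removed PCR duplicates by position and random barcode, pooled the 3 libraries and called clusters with Paraclu. The deposited value of each cluster is a whole-number count, not normalised, taken from its values to be cDNA starts, with a minimum of 10. The depth of each library is not known from the pooled list.

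Clusters were assigned to every gene of GENCODE M21 on their strand that contained their midpoint. Within the member's transcripts, coding sequence took precedence over 3′ UTRs, these over 5′ UTRs, then exons of non-coding transcripts, then introns, and retained-intron transcripts counted as intron. Exon distances used protein-coding transcripts, and exon numbers a reference transcript. Sequence came from annotated transcripts, no genome being used. GCATG was searched on the gene's strand in the cluster with 50 nt on each side. Intervals are Wilson 95%. The assignment was tested on simulated clusters. The gene lists and roles were chosen with earlier results of these data known. The 8 members with the highest sums in synthesis and in oxidation and the 4 highest in activation were described singly and the rest by range, and any of the rest named with values was chosen after they were seen. Python 3.11.15, numpy 2.4.6, pandas 2.3.3, scipy 1.17.1 and matplotlib 3.10.9 were used. Alternatives changed the count minimum, assignment, merging, roles, members, exon set, distance, flank and motif.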

Additional observations from a re-analysis of the deposited data

Results flagged for a closer look

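The strand opposite to the members, which no comparison used, carried 9 clusters inside the spans of 8 members, beside 633 on the members' own strands. They held 159 counts in all, 10 to 55 each, with a median width of 2 nt. In Lpin1 a cluster of 55 counts lay on the opposite strand, and in Ehhadh clusters of 19 and 21 counts did so although its own strand had none. An annotated gene on that strand, Zdhhc6, covered 1 of the 9, in Acsl5.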

How the results depend on the processing

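No paired analysis was possible because the libraries were pooled into 1 group, and for the same reason no replicate could be left out. Of 90 recomputed values, 65 stayed within their counting interval or within 1.5 times the reported value, and the other 25 are given here. Counting only clusters of at least 17 or at least 39 counts, the intronic share of synthesis and storage genes went from 56.1% to 49.2% or 31.2%, their median clusters per gene from 10 to 4 or 0, and their clusters per 10 kb from 3.66 to 2.24 or 0.672. The oxidation median went from 2 to 1 or 0, and its clusters per 10 kb from 1.37 to 0.786 or 0.0873, the last from 3 clusters. The synthesis intronic share was 49.5% without clusters in another gene, 70.4% with clusters within 200 nt merged, 49.7% without Lpin2, 39.5% weighted by count and, in a setting chosen after seeing the data, 67.4% without Scd1. Merging gave 2.36 clusters per 10 kb and GCATG in 24.0% of 50 windows. GCATG was in 7.45% with 20 nt flanks, 4.21% with none (chosen after seeing the data) and 4.96% for TGCATG, and 24.7% of intronic clusters lay within 300 nt of an exon. When the activation and transport genes were divided between the roles, Acot12 went to oxidation, whose intronic share became 83.1%, its clusters per 10 kb 3.78 and its near-exon share 18.8%. Without Cpt1a, GCATG was in 0 of 6 oxidation windows. The synthesis to oxidation ratio of clusters per 10 kb, 2.68, ran from 1.80 to 7.70 over the alternatives, except 0.896 when those genes were divided. Some of these shifts were set by the definitions. A higher count minimum can only lower the number of clusters, TGCATG the motif share and 300 nt the near-exon share, and merging joins clusters into fewer. The cause of the other shifts was not tested.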
